A study of Rattus norvegicus with 31 samples.

Results

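The liver response of rats to a combination of imazalil (IMZ), an azole fungicide, and clothianidin (CTD), a neonicotinoid insecticide, was compared gene by gene with the response given by adding the single-compound responses in proportion to dose. The mixture carried 46 mg/kg bw/day IMZ and 135 mg/kg bw/day CTD, whereas the single compounds were given at 93 and 288 mg/kg bw/day. The dose-weighted sum was therefore 0.5 times the log2 fold change of IMZ plus 0.47 times that of CTD, each against Control, and the departure of a gene was the log2 fold change of IMZ + CTD minus this sum. Of the 26312 genes in the count table, the 19904 with a count sum of at least 2 over all rats were tested, and 19 of the 31 sequenced livers entered the contrast.

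All animals were young adult female Wistar rats (Crl:WI) given the compounds once a day by oral gavage for 28 days, with carboxymethyl-cellulose in water as the vehicle. The contrast used 8 Control rats that received the vehicle alone, 4 IMZ rats, 3 CTD rats and 4 IMZ + CTD rats. The paper marks this CTD group as reduced by killing in moribund condition, so the 3 CTD rats are survivors of that dose. The part of this in the departures was not tested. A second mixture of thiacloprid (THI) and CTD, at 54 and 134 mg/kg bw/day (4 rats), was used with the 4 THI rats (108 mg/kg bw/day) for comparison. A mixture of THI and IMZ, at 54 and 46 mg/kg bw/day (4 rats), also entered the fit and was used for a count only. Each mixture and each compound was sequenced at a single dose, so that no dose response stood behind the weights. The hour at which the livers were taken is not given in the sources used here.

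Imazalil blocks sterol demethylation in fungi, and clothianidin acts on nicotinic acetylcholine receptors of insects. In the liver, many foreign compounds activate the nuclear receptors CAR and PXR, which raise cytochrome P450 enzymes and transporters, while PPARα raises the genes of fatty acid breakdown in peroxisomes and mitochondria. Hepatocytes also hold a circadian clock, in which the activators CLOCK and BMAL1 drive the repressors of the Per and Cry families and output factors such as DBP, TEF and HLF.

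The libraries held between 31.8 M and 101 M counts, with the deepest among the Control rats (median 60.5 M) and 31.9 M to 36.6 M in IMZ + CTD. Replicates of a group correlated at 0.973 to 0.991 across genes on the log2 CPM scale (CPM, counts scaled to the library total). The hepatocyte markers took 21.2, 23.3, 24.9 and 24.9% of all counts in the IMZ + CTD rats, 20.0 to 21.6% in IMZ, 20.9 to 22.2% in CTD and 20.4 to 24.5% in Control. IMZ + CTD rats 2, 3 and 4 thus lay above every IMZ and every CTD rat. Alb, the albumin gene and a member of this list, took 13.1, 15.0, 16.8 and 16.6% of counts in the IMZ + CTD rats. It took 12.0 to 13.9% in IMZ, 13.5 to 14.4% in CTD and 12.1 to 16.1% in Control. Erythroid markers took 0.0164 to 0.0213% of counts in CTD, above every IMZ + CTD rat (0.00207 to 0.0075%) and every IMZ rat (0.00487 to 0.00856%). The 13 genes of the mitochondrial genome took 1.53 to 1.99% of counts in CTD and 1.18 to 1.57% in IMZ + CTD, ranges that overlapped. In bulk liver, fewer cells of a type and less RNA per cell cannot be told apart.

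Across the transcriptome, 230 genes lay off the dose-weighted sum at an adjusted p under 0.05 by edgeR's quasi-likelihood test with Benjamini-Hochberg adjustment, which was 1.16% of the genes tested. Of these, 138 lay above the sum (0.693%) and 92 below it (0.462%). At an unadjusted p under 0.05, 1548 genes lay above (7.78%) and 1293 below (6.5%). The departures were mostly small: their median size was 0.45 on the log2 scale and 23 genes departed by more than 1, 18 of them above the sum. For 229 of the 230 genes, all 4 IMZ + CTD rats lay on the same side of the level given by the sum. The genes were picked by a test on these same rats, so this count is not independent evidence. The median departure over all genes tested was -0.015.

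The single compounds differed widely in how many genes they changed. CTD changed 2518 genes against Control (12.7%), IMZ changed 50 (0.251%) and the mixture 290 (1.46%), while the weighted sum itself differed from 0 in 1318 genes (6.62%). Among the 230 genes off the sum, the sum was called in 128 whose mixture was not, the mixture was called in 19, and neither was called in 83. By sign, the sum lay within 0.3 of 0 for 126 of them, the mixture had the opposite sign to the sum in 77, and it fell short of the sum in the same direction in 27. Outside these 126 genes, which include Dbp and Hlf below, none went beyond a sum of the same sign. With the fold changes added on the linear instead of the log2 scale, 200 genes were off the sum, of which 96 lay above and 104 below, so that the share above was 48% in place of 60%. The number off the sum dropped to 146 without IMZ rat 3, and to 79, 73 and 66 without IMZ + CTD rats 2, 3 and 4. These are the rats with the high hepatocyte marker share, whose part in the calls was not tested.

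**Figure D1:**
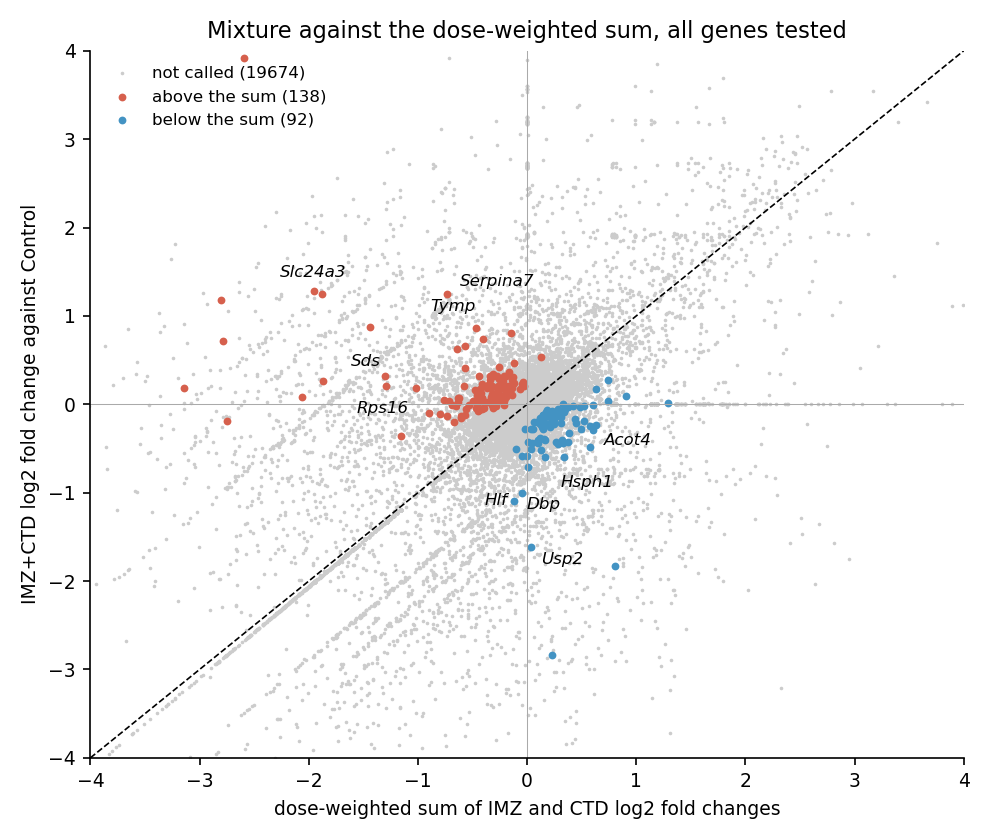
Log2 fold change of IMZ + CTD against Control (vertical) over the dose-weighted sum of the IMZ and CTD fold changes (horizontal) for the genes tested, with the dashed line marking equality. Red points are the 138 genes above the sum and blue points the 92 below it, and 91 genes lie outside the axes of 4 in either direction.

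Of 13 clock-controlled genes, a list of output factors and of genes that peak with Dbp, 3 lay below the sum (Usp2, Dbp and Hlf) and none above. The departure was negative in 9 of the 13 and positive in 4. Its median was -0.87 against -0.015 over all genes, and ran from -0.98 to -0.57 over the alternatives tried. At an unadjusted p under 0.05, 7 of the 13 lay below and 2 above. For this list and those that follow, the shares over all genes were 0.462% called below and 0.693% called above. At the unadjusted threshold they were 6.5 and 7.78%. Over all genes, 9347 departures were positive and 10557 negative. List sizes count gene identifiers, and a symbol can have several. The list contains circadian genes that the study named for this mixture from the same libraries, so its direction is not independent evidence. Among 13 clock repressors, a list that shares Per1, Per2, Per3, Nr1d1, NR1D2 and Bhlhe41 with the clock-controlled genes, Cry1 was the only gene below the sum and none lay above, with a median of -0.13. The values of the mixture rats, the single-compound rats and the level given by the sum are shown for 12 genes in the plots of levels by rat.

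Usp2 (ENSRNOG00000006663), a deubiquitinase whose transcript cycles with the clock, had 5.91, 2.33, 4.41 and 2.92 CPM in the 4 IMZ + CTD rats. The IMZ rats had 14.9, 19.7, 14.2 and 11.4 CPM, the CTD rats 9.29, 14.4 and 5.54, and Control ran from 7.33 to 16.9 with a median of 11.3. All mixture rats were below every Control and IMZ rat, whereas CTD rat 3 fell among them. The sum gave 11.6 CPM, and the departure was -1.65 ± 0.37 on the log2 scale (SE, adjusted p = 0.0206).

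Dbp (ENSRNOG00000021027), the PAR bZIP factor most used as a clock output, had 2.43, 2.30, 2.76 and 2.86 CPM in IMZ + CTD. It had 4.30, 6.01, 5.67 and 4.06 CPM in IMZ, 5.10, 6.95 and 3.29 CPM in CTD, and 4.07 to 7.58 CPM in Control (median 5.42). The mixture rats lay below every rat of the other 3 groups. Against a predicted 4.93 CPM the departure was -0.97 ± 0.18 (adjusted p = 0.00566), and the mixture itself fell by 1.09 against Control (adjusted p = 0.000968).

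Hlf (ENSRNOG00000002456), a second PAR bZIP factor, had 3.38, 3.35, 2.82 and 3.50 CPM in IMZ + CTD, against 5.01 to 8.71 in Control (median 6.41). The IMZ rats had 4.84, 8.66, 6.87 and 3.89 CPM and the CTD rats 5.59, 10.4 and 3.85. Here too no mixture rat overlapped another group, and the departure was -0.96 ± 0.24 (adjusted p = 0.0425). Cry1 (ENSRNOG00000006622), a repressor of CLOCK and BMAL1, had 24.4, 17.9, 25.2 and 20.8 CPM in IMZ + CTD and 28.1 to 40.6 CPM in Control (median 32.1). It had 34.9, 41.1, 36.8 and 29.3 CPM in IMZ and 36.4, 54.9 and 27.8 CPM in CTD, all above the mixture rats. Its departure was -0.76 ± 0.18 (adjusted p = 0.0332).

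In all 4 genes CTD rat 2 was the highest and CTD rat 3 the lowest of its group. Dbp stayed past the threshold when any 1 rat was left out. Usp2 lost its call without CTD rat 2 (adjusted p = 0.0525) or IMZ + CTD rats 2, 3 or 4 (adjusted p = 0.103, 0.0604 and 0.0978). Hlf lost it without IMZ rats 2 or 3 or CTD rat 2 (0.066, 0.0631 and 0.109) and without any IMZ + CTD rat (0.0696 to 0.142). Cry1 lost it without the same 3 single-compound rats (0.0504, 0.0515 and 0.0812) or IMZ + CTD rats 2, 3 or 4 (0.134, 0.0604 and 0.117). Whether the rats differed in the hour of sampling was not tested.

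Other clock genes had departures that did not pass the threshold. Per1, a repressor, had 6.43, 3.92, 8.11 and 9.41 CPM in IMZ + CTD against 9.99 to 29.4 in Control, and a departure of -0.87 ± 0.27 (adjusted p = 0.102), while the mixture fell by 1.38 against Control (adjusted p = 0.00493). Per2 had 17.3, 7.32, 8.32 and 6.13 CPM in the mixture rats and 20.2 to 39.5 CPM in Control, and its departure was -1.38 ± 0.43 (adjusted p = 0.102). Per3 had a departure of -1.01 ± 0.37 (adjusted p = 0.177). Tef, the third PAR bZIP factor, had 18, 16, 16.5 and 22.1 CPM in the mixture rats, all under the Control range of 23.5 to 37.9, and a departure of -0.56 ± 0.18 (adjusted p = 0.138). Cry2 had a departure of -0.38 ± 0.14 (adjusted p = 0.169). On the other side, the departure of NR1D2, a nuclear receptor that represses Bmal1, was 0.47 ± 0.17 (adjusted p = 0.19) and that of its relative Nr1d1 was 1.89 ± 0.61 (adjusted p = 0.129). Nr1d1 was scarce, at 0.136 to 0.94 CPM in Control and 1.26, 3.75, 0.617 and 2.70 CPM in IMZ + CTD.

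RefSeq promoters (build GRCr8, 250 bases before to 50 bases after the start of the gene) were matched by symbol for 11 of the 13 clock-controlled genes. The sequences of Usp2 (chr8:53310620-53310919, plus strand), Dbp (chr1:105312006-105312305, plus strand), Tef (chr7:115206577-115206876, plus strand) and Per2 (chr9:99496944-99497243, minus strand) are shown, the first pair as called genes with a matched promoter and the others as examples with an E-box and with the D-box core. They are written 5′ to 3′ along the gene, and capitals mark matches to the motifs searched on both strands: the E-box CACGTG, the D-box core TTATGTA or TTACGTA, the CCAAT box, the nuclear receptor motif AGGTCA and the cell cycle motif TTTGAA.
Usp2: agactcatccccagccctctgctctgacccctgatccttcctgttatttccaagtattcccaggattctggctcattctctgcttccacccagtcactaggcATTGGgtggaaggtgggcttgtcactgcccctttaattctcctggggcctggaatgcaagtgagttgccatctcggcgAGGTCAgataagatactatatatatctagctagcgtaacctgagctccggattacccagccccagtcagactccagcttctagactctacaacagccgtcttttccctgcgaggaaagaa
Dbp: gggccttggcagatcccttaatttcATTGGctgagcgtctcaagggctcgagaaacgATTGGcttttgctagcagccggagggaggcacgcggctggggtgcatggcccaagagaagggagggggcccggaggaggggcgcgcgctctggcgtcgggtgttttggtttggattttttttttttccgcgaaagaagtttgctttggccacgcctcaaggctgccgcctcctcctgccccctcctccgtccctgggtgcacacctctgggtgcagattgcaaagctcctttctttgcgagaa
Tef: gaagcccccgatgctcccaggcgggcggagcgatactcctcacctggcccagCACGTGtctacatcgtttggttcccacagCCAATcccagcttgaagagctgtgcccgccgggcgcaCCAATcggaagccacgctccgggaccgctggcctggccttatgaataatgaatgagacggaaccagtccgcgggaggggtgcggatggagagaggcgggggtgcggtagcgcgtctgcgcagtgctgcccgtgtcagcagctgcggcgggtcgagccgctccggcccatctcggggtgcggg
Per2: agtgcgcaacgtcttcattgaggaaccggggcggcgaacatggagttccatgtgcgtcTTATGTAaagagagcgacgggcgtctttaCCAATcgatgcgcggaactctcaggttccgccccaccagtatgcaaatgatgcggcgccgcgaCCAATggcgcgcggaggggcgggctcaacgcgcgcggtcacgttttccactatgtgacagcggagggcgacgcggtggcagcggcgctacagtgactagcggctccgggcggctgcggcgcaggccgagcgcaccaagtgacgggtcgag
The E-box stood in 3 of the 11 promoters (27.3%; Tef, Bhlhe41 and Ppp1r3c), against 6.65% of the 27457 promoters in the table and 8.69% of the 12089 that matched a gene tested. The D-box core was found in 1 (9.09%, against 3.26% of the table and 1.92% of genes tested), the receptor motif in 2 (18.2% against 15.7 and 12.9%) and the cell cycle motif in none (18.1 and 12.6%). The CCAAT box stood in 8 (72.7% against 37.7 and 37.3%), a share also reached by the cell division list, which gave no call (17 of 23 promoters, 73.9%). Promoters of genes tested held more G and C than the whole table (median 59.7 against 52.3%), and those of the clock-controlled genes 60.3%. Of the sequences shown, Tef holds an E-box, Per2 a D-box core, and Usp2 a receptor motif. These matches describe the letters in the window only.

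**Figure D2:**
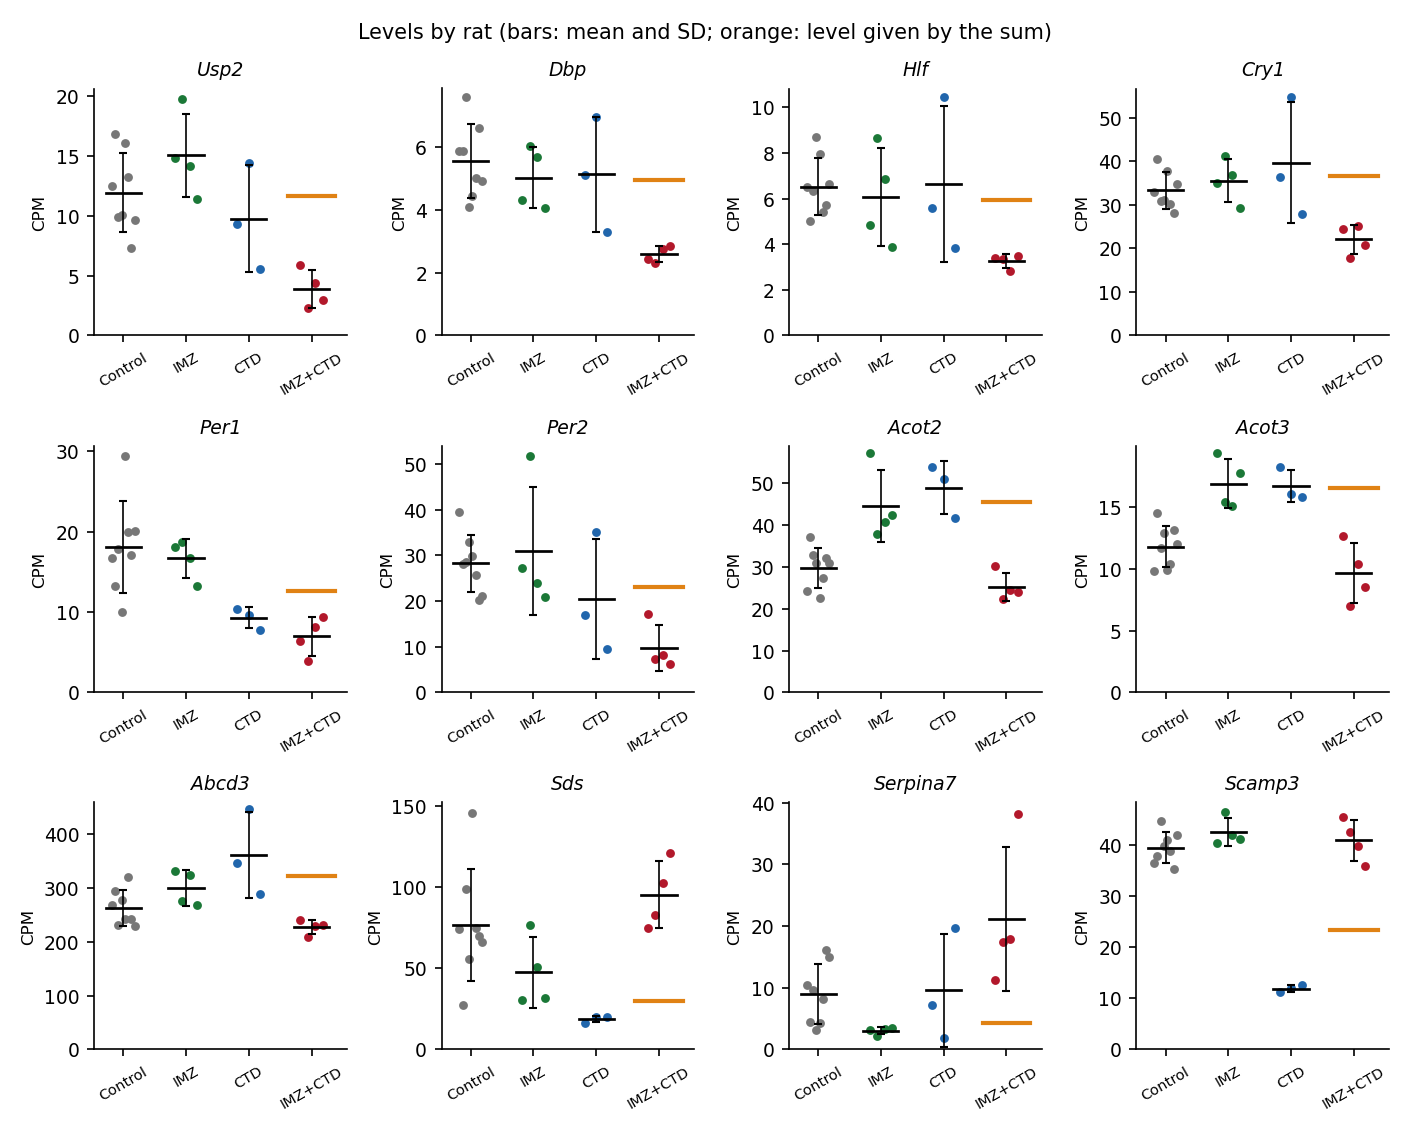
CPM of 12 genes in each rat of the Control, IMZ, CTD and IMZ + CTD groups, with bars for the mean and SD and an orange line for the level given by the dose-weighted sum. The mixture rats of Usp2, Dbp, Hlf, Cry1, Acot2, Acot3 and Abcd3 sit below the orange line and those of Sds, Serpina7 and Scamp3 above it.

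Several acyl-CoA thioesterases, which release fatty acids from coenzyme A, also lay below the sum. Of 12 family members tested, 4 (Acot2, Acot3, Acot4 and Acot5) lay below and none above, against 0.462% of all genes below. The median departure was -0.47, which became -0.25 with the filterByExpr filter. Acot2, Acot3 and Acot4 are also among the 12 genes named for the smallest departures, so the family count is not independent evidence. The 4 are closely similar in sequence, and how reads were split between such copies is uncertain. In the list of 30 PPARα targets, 2 lay below the sum (Acot2 and Acot3) and none above, 11 were below and 1 above at the unadjusted threshold, with a median of -0.24.

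Acot2 (ENSRNOG00000010134), the mitochondrial form, had 57.3, 37.9, 40.8 and 42.4 CPM in IMZ and 53.9, 51.0 and 41.8 CPM in CTD. The IMZ + CTD rats had 30.1, 22.4, 24.5 and 24 CPM and Control 22.6 to 37.2 CPM (median 30.9). All IMZ and CTD rats exceeded the Control range, while the IMZ + CTD rats lay within it or just below. The departure was -0.86 ± 0.17 (adjusted p = 0.00811). Acot3 (ENSRNOG00000033887) had 19.3, 15.4, 15.1 and 17.7 CPM in IMZ, 18.2, 16 and 15.8 CPM in CTD, and 12.6, 7.01, 10.4 and 8.54 CPM in IMZ + CTD, with 9.83 to 14.5 CPM in Control. Its departure was -0.78 ± 0.15 (adjusted p = 0.00771). As for Acot2, all IMZ and CTD rats lay above all IMZ + CTD rats.

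Acot4 and Acot5, both peroxisomal enzymes, had departures of -1.06 ± 0.24 (adjusted p = 0.0206) and -0.69 ± 0.15 (adjusted p = 0.0211). Acot4 had 28.6, 15.8, 21.2 and 17.9 CPM in IMZ + CTD against 35.4 to 48.7 CPM in CTD and 37.1 to 55.4 CPM in IMZ. Abcd3, a transporter of the peroxisomal membrane, had 240, 209, 230 and 231 CPM in IMZ + CTD, 268 to 333 CPM in IMZ and 290 to 447 CPM in CTD. The mixture rats of Abcd3 lay below all rats given a single compound and overlapped Control (229 to 320 CPM), and the departure was -0.52 ± 0.12 (adjusted p = 0.0252). Pex11a, which acts in peroxisome division, had a departure of -0.60 ± 0.16 (adjusted p = 0.052). Of all 16 peroxin entries, Pex11a included, none was called, 10 departures were positive and 6 negative, and the median was 0.02. Cyp4a1, a classic PPARα target, had 84.1, 83.8, 73.2 and 97.2 CPM in the mixture rats and a departure of -0.10 (95% interval -0.34 to 0.14, adjusted p = 0.787). Acot2 kept its call with each rat left out. The others did not: Acot3 lost it without IMZ + CTD rat 2 (adjusted p = 0.06), Acot4 without rats 2, 3 or 4 (0.0668 to 0.103), Acot5 without rats 2 or 4 (0.108 and 0.0817), and Abcd3 without CTD rat 2 (0.0638) or IMZ + CTD rats 2, 3 or 4 (0.0736 to 0.105).

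Sterol synthesis genes had mostly negative departures (21 of 25), although few were called. Of the 25 cholesterol synthesis genes, 1 lay below the sum (Sc5d) and none above, and 12 were below and none above at an unadjusted p under 0.05, with a median of -0.35. Sc5d, the lathosterol desaturase, had 363, 301, 387 and 302 CPM in IMZ + CTD and 308 to 392 CPM in Control, while the IMZ rats had 416 to 481 CPM and the CTD rats 406 to 559 CPM. Its departure of -0.41 ± 0.11 was close to the threshold (adjusted p = 0.0497) and was no longer called with any rat of the IMZ + CTD or IMZ groups, CTD rats 1 or 2, or Control rats 1, 2 or 6 left out (up to 0.172 without IMZ + CTD rat 4). The cholesterol exporters of the lysosome, chosen after their values were seen, lay on the other side. Npc2 had 103, 109, 108 and 118 CPM in IMZ + CTD and 66.0 to 79.8 CPM in CTD (departure 0.36 ± 0.07, adjusted p = 0.0106), and Npc1 had a departure of 0.46 ± 0.11 (adjusted p = 0.0388). The call of Npc2 was lost without IMZ + CTD rat 4 (adjusted p = 0.0852), and that of Npc1 without IMZ rats 2 or 3, CTD rats 1 or 2, or IMZ + CTD rats 2, 3 or 4 (up to 0.138).

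Of 19 CAR and PXR targets, 6 rose in the mixture against Control and none fell. Against the sum, 1 lay below the sum (Abcb1a) and none above, 7 were below and none above at the unadjusted threshold, with a median of -0.38. Abcb1a, an efflux transporter, had 29.3, 24.5, 27.7 and 29 CPM in IMZ + CTD, against 35.6 to 59.1 CPM in IMZ and 27.2, 55.0 and 55.1 CPM in CTD. Its departure was -0.70 ± 0.18 (adjusted p = 0.0432), and leaving out any IMZ + CTD rat, IMZ rats 1, 2 or 3, CTD rats 1 or 2, or Control rats 1 or 8 took it to the threshold or over it, up to 0.144 without IMZ + CTD rat 2. Cyp2b1, the classic phenobarbital-inducible P450, had 55.6, 8.12, 6.23 and 4.62 CPM in the mixture rats, 13.5 to 472 CPM in IMZ and 0.0302 to 0.998 CPM in Control. It rose in the mixture by 5.20 on the log2 scale (adjusted p = 0.000718), and its departure was -2.30 ± 0.80 (adjusted p = 0.163). Reads of Cyp2b1 and Cyp2b2 are hard to assign to a single copy. Ces2g, a carboxylesterase chosen after its values were seen, had a departure of -0.52 (adjusted p = 0.0388) that was lost without IMZ rats 3 or 4, CTD rats 1 or 2, or IMZ + CTD rats 2, 3 or 4 (up to 0.152).

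Of 19 NRF2 targets, 1 (Gclm) lay below the sum and none above, with a median of -0.31 that became -0.18 without IMZ + CTD rat 1. Gclm, the modifier subunit of the enzyme that starts glutathione synthesis, had 57.3 to 70.1 CPM in Control and 72.7, 75.9, 79.2 and 73.7 CPM in IMZ + CTD. The IMZ rats had 94.9, 75.2, 102 and 80.3 CPM and the CTD rats 145, 145 and 94.0 CPM. The mixture rats were above all Control rats and below all CTD rats, and the departure was -0.46 ± 0.11 (adjusted p = 0.0238). The call was lost without CTD rats 1 or 2 (0.0602 and 0.0571) or any IMZ + CTD rat (0.0567 to 0.0881). Cyp1a1, the main target of the aryl hydrocarbon receptor, had 4.55, 6.33, 4.35 and 2.63 CPM in the mixture rats and 7.72 to 77.6 CPM in IMZ (departure -2.64 ± 0.76, adjusted p = 0.0741). Me1, malic enzyme, had a departure of -1.05 ± 0.33 (adjusted p = 0.118).

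Genes that the study had picked as most regulated in these libraries gave no call off the sum in either direction. Cyp2b2 rose in IMZ + CTD by 3.65 on the log2 scale where the sum gave 5.15, and the departure was -1.5 (95% interval -2.44 to -0.56, adjusted p = 0.102). Abcc3, an efflux transporter, rose by 1.65 where the sum gave 2.23 (departure -0.58, interval -1.08 to -0.08). Aldh1a1, a retinaldehyde dehydrogenase, rose by 1.49 where the sum gave 1.82 (departure -0.34, interval -0.85 to 0.18). The interval of Aldh1a1 thus included 0, and those of Cyp2b2 and Abcc3 did not, at an unadjusted level. The departure of Cyp3a23/3a1 was -0.70 (interval -1.43 to 0.03), that of Cyp7a1, the rate-limiting enzyme of bile acid synthesis, -0.74 (interval -1.77 to 0.29), and that of Mme, a membrane peptidase, -0.24 (interval -0.99 to 0.50). Megf11 had -0.22 (interval -0.61 to 0.18) and Eln, elastin, 0.17 (interval -0.39 to 0.74). Ky came closest to the threshold, with 11.5, 11, 5.47 and 8.64 CPM in IMZ + CTD and 1.48 to 2.20 CPM in CTD (departure 1.11, interval 0.52 to 1.70, adjusted p = 0.0508).

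Ribosomal protein genes had mostly positive departures (81 of 93 identifiers, which stand for 81 gene symbols). Of these 93, 9 lay above the sum and none below, 45 were above and 1 below at the unadjusted threshold, with a median departure of 0.20. The shifts were small and set against lower levels in CTD: the median log2 fold change over the 93 was -0.14 in CTD and 0.07 in IMZ + CTD. As a share of all counts these genes took 0.742 to 0.870% in CTD and 0.862 to 0.912% in IMZ + CTD, ranges that overlapped. Ribosomal proteins have many processed copies in the genome, and how reads on those copies were counted is uncertain.

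Rps16 (ENSRNOG00000019578), a protein of the small subunit, had 20.0, 7.16 and 6.86 CPM in CTD and 54.2 to 94.4 CPM in Control (median 66.8). The mixture rats had 75.7, 76.2, 82.9 and 92.5 CPM and the IMZ rats 54.8, 75.5, 69.8 and 63.5 CPM. Only the CTD rats stood apart, and the departure was 1.5 ± 0.18 (adjusted p = 1.86e-05). The other 8 called genes (Rps28, Rps20, Rpl38, Rpl41, Rps15, Rpl10a, Rps29 and Rpl31) had smaller departures, between 0.24 and 0.37. Rps28 had 27.6, 30.5 and 32.0 CPM in CTD and 45.1, 49.2, 49.3 and 43.6 CPM in IMZ + CTD (departure 0.37 ± 0.07, adjusted p = 0.00566). Rps16, Rps28 and Rpl38 kept the call with each rat left out. The others lost it without 1 or more rats: Rpl10a without IMZ + CTD rat 3 (0.0736), Rps20 without rat 4 (0.103), Rps15 without rats 2 or 3 (0.0663 and 0.0585), Rpl41 without rats 3 or 4 (0.066 and 0.124), Rps29 without CTD rat 1 or IMZ + CTD rats 3 or 4 (0.0531 to 0.102), and Rpl31 without every rat other than Control rat 2 and IMZ rat 2 (up to 0.147).

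Genes of oxidative phosphorylation had mostly positive departures where the gene is nuclear (23 of 27) and negative departures where it is mitochondrial (13 of 13). Of the nuclear genes in the list, 1 (Cox4i1, a subunit of cytochrome c oxidase) lay above and none below, 8 were above and none below at the unadjusted threshold, with a median of 0.10. Among 36 complex I subunits the same counts held, with Ndufb7 as the gene called. Ndufb7 had 19.4, 25.1 and 24.9 CPM in CTD, 40.6 to 50.2 CPM in IMZ + CTD and 46.2 to 57.9 CPM in Control, and its departure of 0.45 ± 0.09 (adjusted p = 0.00819) held with each rat left out. Cox4i1 had a departure of 0.25 ± 0.06 (adjusted p = 0.0326), which was lost without IMZ rats 3 or 4, CTD rats 1 or 2, and IMZ + CTD rats 2, 3 or 4 (up to 0.134).

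Of the 13 genes encoded in the mitochondrial genome, 4 (MT-ATP8, MT-ND4L, MT-ND2 and ND3) lay below the sum, 7 were below at the unadjusted threshold, with a median of -0.45. MT-ATP8, an ATP synthase subunit, had 2.73, 4.50 and 6.03 CPM in CTD and 0.44 to 0.802 CPM in Control. The mixture rats had 0.769, 0.852, 0.588 and 0.417 CPM, within or near the Control range, and the departure was -1.28 ± 0.28 (adjusted p = 0.0204). ND3, a complex I subunit, had 271, 251 and 289 CPM in CTD, 158, 128, 122 and 150 CPM in IMZ + CTD and 94.8 to 152 CPM in Control (departure -0.45 ± 0.11, adjusted p = 0.0266). In each of the 4 genes CTD alone was above both Control and the mixture. Their calls depended on single mixture rats: MT-ATP8 lost its call without IMZ + CTD rats 3 or 4 (0.077 and 0.104), MT-ND4L without rats 2 or 3 (0.0667 and 0.0776), ND3 without rats 2, 3 or 4 (0.0578 to 0.117), and MT-ND2 without IMZ + CTD rats 2, 3 or 4, any CTD rat or IMZ rats 1 or 4 (up to 0.183 without IMZ + CTD rat 3). The share of counts on mitochondrial genes moved with the CTD group, as given above, and its part in these departures was not tested.

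Of 21 Hnrnp genes, which bind and process RNA, 2 (Hnrnpa2b1 and Hnrnpu) lay below the sum and none above, with a median of -0.03. Of 11 Srsf splicing factor genes 1 (Srsf1) lay below and none above, with a median of -0.14. The Hnrnp and Srsf families were added to the first gene lists, so their counts are not independent evidence. Hnrnpa2b1, Hnrnpu, Srsf1, Eif5b and Esf1 were chosen after their values were seen. Eif5b, a factor that joins ribosomal subunits, had 11.6, 12.0, 12.5 and 10.2 CPM in IMZ + CTD, below all rats of Control (15.3 to 19.2), IMZ (13.4 to 16.4) and CTD (20.9 to 25.4). Its departure was -0.65 ± 0.08 (adjusted p = 2e-05), and the mixture fell by 0.52 against Control (adjusted p = 0.00056). Esf1, a nucleolar protein, had 6.03, 7.01, 7.76 and 7.13 CPM in IMZ + CTD, also below all other rats, and a departure of -0.73 ± 0.11 (adjusted p = 0.000453). Srsf1 had a departure of -0.42 ± 0.07 (adjusted p = 0.00283). Ccar1, a regulator of transcription and apoptosis, had 8.40, 7.60 and 7.29 CPM in CTD and 3.26, 3.04, 2.64 and 3.50 CPM in IMZ + CTD (departure -0.80 ± 0.14, adjusted p = 0.00251). All 4 kept their calls with each rat left out. Hnrnpa2b1 lost its call without IMZ + CTD rat 3 (0.0604) and Hnrnpu without CTD rat 2 or IMZ + CTD rats 2, 3 or 4 (0.0525 to 0.129).

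Of 15 heat shock genes, 1 (Hsph1) lay below the sum and none above, 4 were below and none above at the unadjusted threshold, with a median of -0.25. Hsph1, a co-chaperone of HSP70, had 73.3, 52.7, 47.1 and 45.2 CPM in IMZ + CTD, whereas the IMZ rats had 90.7 to 116 CPM and the CTD rats 105 to 130 CPM. The mixture rats were below all IMZ and CTD rats and overlapped Control (48.2 to 134 CPM). The departure was -0.94 ± 0.24 (adjusted p = 0.0425), and leaving out any IMZ rat, CTD rats 1 or 2 or IMZ + CTD rats 2, 3 or 4 took it over the threshold (0.0504 to 0.149). Tfrc, the transferrin receptor, had 40.7, 36.6, 36.4 and 34.9 CPM in IMZ + CTD and 53.2 to 87.9 CPM over the IMZ and CTD rats, with 31.1 to 65.2 CPM in Control. Its departure was -0.81 ± 0.17 (adjusted p = 0.0166) and was lost without IMZ + CTD rats 2, 3 or 4 (0.0594 to 0.0797). Snx10, a sorting nexin, had a departure of -0.89 ± 0.22 (adjusted p = 0.0367), lost without IMZ rats 1 or 4, CTD rats 1 or 2, or IMZ + CTD rats 1, 2 or 4 (up to 0.131).

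Above the sum, the genes with the largest departures had varied roles, and many of them varied widely between rats. Sds (ENSRNOG00000001388), the serine dehydratase of amino acid breakdown, had 16.5, 19.8 and 19.8 CPM in CTD and 75.2, 82.9, 103 and 121 CPM in IMZ + CTD. Control ran from 27.5 to 146 CPM (median 72.0) and IMZ had 30.3, 77.0, 50.9 and 31.8 CPM. Only the CTD rats stood apart from Control, and the departure was 1.62 ± 0.40 (adjusted p = 0.0388), lost with the linear sum (0.0728) and without IMZ rats 1, 3 or 4, any CTD rat, or IMZ + CTD rats 2, 3 or 4 (up to 0.136). Serpina7 (ENSRNOG00000011081), thyroxine-binding globulin, had 11.3, 17.4, 17.8 and 38.1 CPM in IMZ + CTD, 2.21 to 3.46 CPM in IMZ, and 7.21, 1.78 and 19.7 CPM in CTD. Its departure was 1.98 ± 0.48 (adjusted p = 0.035), lost with the linear sum (0.09) and without any IMZ rat, CTD rats 1 or 2, or IMZ + CTD rats 2, 3 or 4 (up to 0.19). In this gene the mixture rats stood above all IMZ rats and overlapped both Control (3.11 to 16.2 CPM) and CTD.

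Slc24a3, a sodium/potassium/calcium exchanger, had 1.38, 3.24, 3.44 and 10.2 CPM in IMZ + CTD and 0.319 to 1.3 CPM in IMZ (departure 3.13 ± 0.77, adjusted p = 0.0372), and its call was lost without IMZ rats 1, 2 or 3, CTD rats 1 or 3, or IMZ + CTD rats 2, 3 or 4 (up to 0.208). CTD had 0.0308 to 0.749 CPM and Control 0.262 to 4.43 CPM, so the mixture rats overlapped Control. MT1 had 0.953, 1.02, 3.35 and 3.72 CPM in IMZ + CTD, within the Control range of 0.801 to 4.95 CPM. The IMZ rats had 0.368 to 1.01 CPM and the CTD rats 0.123 to 0.724 CPM. The departure of MT1 was 2.14 ± 0.52 (adjusted p = 0.035), lost without IMZ rats 1, 2 or 4, CTD rats 1 or 3, or IMZ + CTD rats 3 or 4 (up to 0.167). Tymp, thymidine phosphorylase, had 78.0, 66.8, 63.2 and 98.6 CPM in IMZ + CTD, above every rat of Control (21.2 to 52.7), IMZ (19.7 to 25.2) and CTD (31.6 to 57.5). Its departure was 1.33 ± 0.32 (adjusted p = 0.0309), lost with the linear sum (0.0576) and without IMZ rat 3, CTD rats 1 or 2, or any IMZ + CTD rat (up to 0.134). Sco2, a copper chaperone of cytochrome c oxidase whose gene neighbours Tymp, had 46.4, 39.7, 42.4 and 55.5 CPM in IMZ + CTD, again above all other rats (15.0 to 33.2 CPM). Its departure was 1.14 ± 0.24 (adjusted p = 0.0155), and without IMZ + CTD rat 4 the adjusted p was 0.0852. How reads were split between these close neighbours is uncertain, so the 2 calls may not be separate.

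Ptk6, a tyrosine kinase, had 4.28, 3.18, 4.70 and 7.35 CPM in IMZ + CTD and 0.962 to 2.84 CPM over the IMZ and CTD rats (departure 1.26 ± 0.28, adjusted p = 0.0182). Lepr, the leptin receptor, had 16.5, 15.2, 15.6 and 27 CPM in IMZ + CTD and 8.22 to 14.1 CPM over the IMZ and CTD rats (departure 0.81 ± 0.19, adjusted p = 0.027). In both, the mixture rats overlapped Control while every IMZ and CTD rat was lower than every mixture rat. Nr4a2, an immediate early nuclear receptor, had a departure of 0.96 ± 0.23 (adjusted p = 0.0317). Tmem86a, a membrane protein, had a departure of 0.97 ± 0.25 (adjusted p = 0.0486). The call was lost without IMZ + CTD rats 3 or 4 for Ptk6 (0.0507 and 0.136), without CTD rats 1 or 2 or IMZ + CTD rat 4 for Lepr (0.057, 0.0593 and 0.2), and without IMZ rats 3 or 4, CTD rats 2 or 3, or IMZ + CTD rats 2, 3 or 4 for Nr4a2 (up to 0.149). That of Tmem86a was lost without any IMZ rat, CTD rats 1 or 2, IMZ + CTD rats 2, 3 or 4, or Control rats 3, 5, 6, 7 or 8 (up to 0.204).

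A further set of genes lay above the sum with tight groups and a low level in CTD alone. Scamp3 (ENSRNOG00000048405), a protein of secretory carrier membranes, had 11.2, 11.9 and 12.6 CPM in CTD. It had 45.4, 42.6, 39.8 and 35.9 CPM in IMZ + CTD, 40.5 to 46.5 CPM in IMZ and 35.4 to 44.7 CPM in Control. The mixture lay within the range of Control and IMZ, and the departure was 0.81 ± 0.08 (adjusted p = 1.29e-07). Serping1, the C1 inhibitor of complement, had 180, 148 and 146 CPM in CTD and 395, 382, 394 and 431 CPM in IMZ + CTD (departure 0.69 ± 0.08, adjusted p = 1.44e-05). Idh1, the cytosolic isocitrate dehydrogenase, had 223, 262 and 246 CPM in CTD and 510, 538, 519 and 557 CPM in IMZ + CTD (departure 0.55 ± 0.09, adjusted p = 0.00119). Htra1, a secreted protease, had 21.1 to 31.3 CPM in CTD and 59.6 to 67.5 CPM in IMZ + CTD (departure 0.64 ± 0.10, adjusted p = 0.000453). In these 4 genes the CTD rats did not overlap any other group, and the calls held with each rat left out. Serping1, Idh1 and Htra1 were chosen after their values were seen.

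Stat5b, which relays growth hormone signals, had 55.8, 66.4 and 74.6 CPM in CTD, 73.9 to 80.1 CPM in IMZ, and 93.0, 86.9, 97.7 and 96.0 CPM in IMZ + CTD. Both compounds alone lay below every mixture rat, which overlapped Control (82.5 to 95.8 CPM), and the departure was 0.38 ± 0.07 (adjusted p = 0.00209). Cdo1, cysteine dioxygenase, had 698, 737 and 723 CPM in CTD, 895 to 989 CPM in IMZ, and 1172, 1287, 1155 and 1375 CPM in IMZ + CTD. Again every single-compound rat lay below every mixture rat, and the departure was 0.57 ± 0.09 (adjusted p = 0.000775). Both calls held with each rat left out. Thrb, the thyroid hormone receptor beta, had a departure of 0.33 ± 0.08 (adjusted p = 0.035), lost without IMZ rat 3, CTD rat 1 or IMZ + CTD rats 1, 2 or 4 (up to 0.144).

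**Figure D3:**
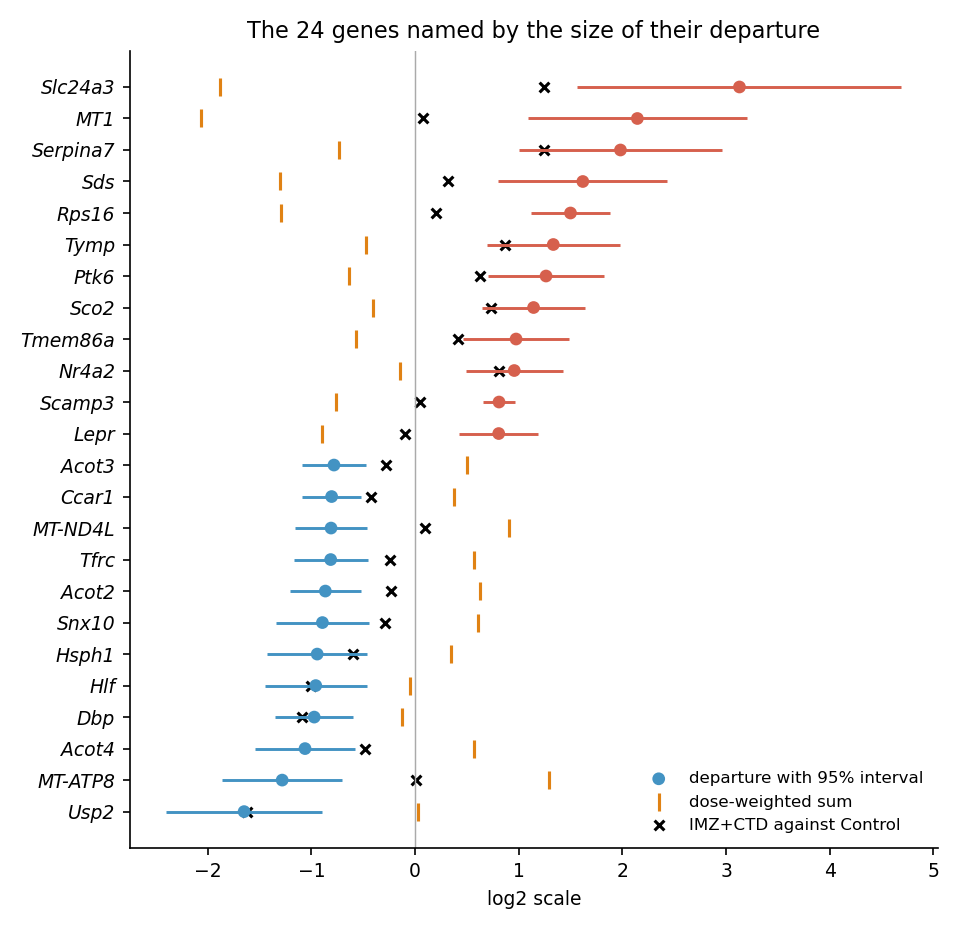
Departure of the 24 genes chosen by size (12 above the sum in red, 12 below in blue) with 95% intervals, beside the dose-weighted sum (orange tick) and the log2 fold change of IMZ + CTD against Control (cross), all on the log2 scale. For the 12 genes above the sum the tick lies below 0, and for Usp2, Dbp and Hlf the tick lies near 0 and the cross far below it.

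Cell division was changed by the mixture and gave no gene off the sum. Of 29 cell division genes, 28 rose in IMZ + CTD against Control, with a median log2 fold change of 2.29 where the sum gave 2.06, and none was called off the sum at the adjusted or unadjusted threshold. The median departure was 0.23, and ran from -0.07 without IMZ + CTD rat 3 to 0.57 without CTD rat 1. Cdk1, the kinase that starts mitosis, had 2.15, 3.83, 8.02 and 4.59 CPM in IMZ + CTD and 0.238 to 0.801 CPM in Control, with 1.10 to 2.82 CPM in IMZ and 13, 5.09 and 2.77 CPM in CTD. Its departure was 0.42 with a 95% interval of -0.37 to 1.22 (adjusted p = 0.699). Ccnb1, cyclin B1, had a departure of 0.63 with an interval of -0.29 to 1.56, so a sizeable departure in either gene was not detectable with this spread. Neither DNA replication (27 genes, median -0.02) nor DNA repair (20 genes, median 0.01) had a gene off the sum. In the histone list of 27 genes, 1 (Hist3h2a) lay above and none below, with a median of 0.05, and its call was lost without IMZ rats 2 or 4, CTD rat 2, or IMZ + CTD rats 2, 3 or 4 (up to 0.231).

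Other lists were called in few members. The 18 immediate early genes had no call in either direction, 4 were above and none below at the unadjusted threshold, with a median of 0.48. This list does not hold Nr4a2, which was called above the sum. The 15 pericentral genes, expressed next to the central vein, had no call, 5 above and none below at the unadjusted threshold, and a median of 0.28. Among 18 acute phase genes no call was made, 5 were above and 1 below at the unadjusted threshold, and the median was 0.17. The 30 proteasome genes had no call, none above and 7 below at the unadjusted threshold, and a median of -0.11. Of 34 serpins, 3 lay above the sum and none below, with a median of 0.13. Lists of interferon, lipogenesis and bile acid genes had no call in either direction, with medians of -0.18, -0.10 and -0.05.

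**Figure D4:**
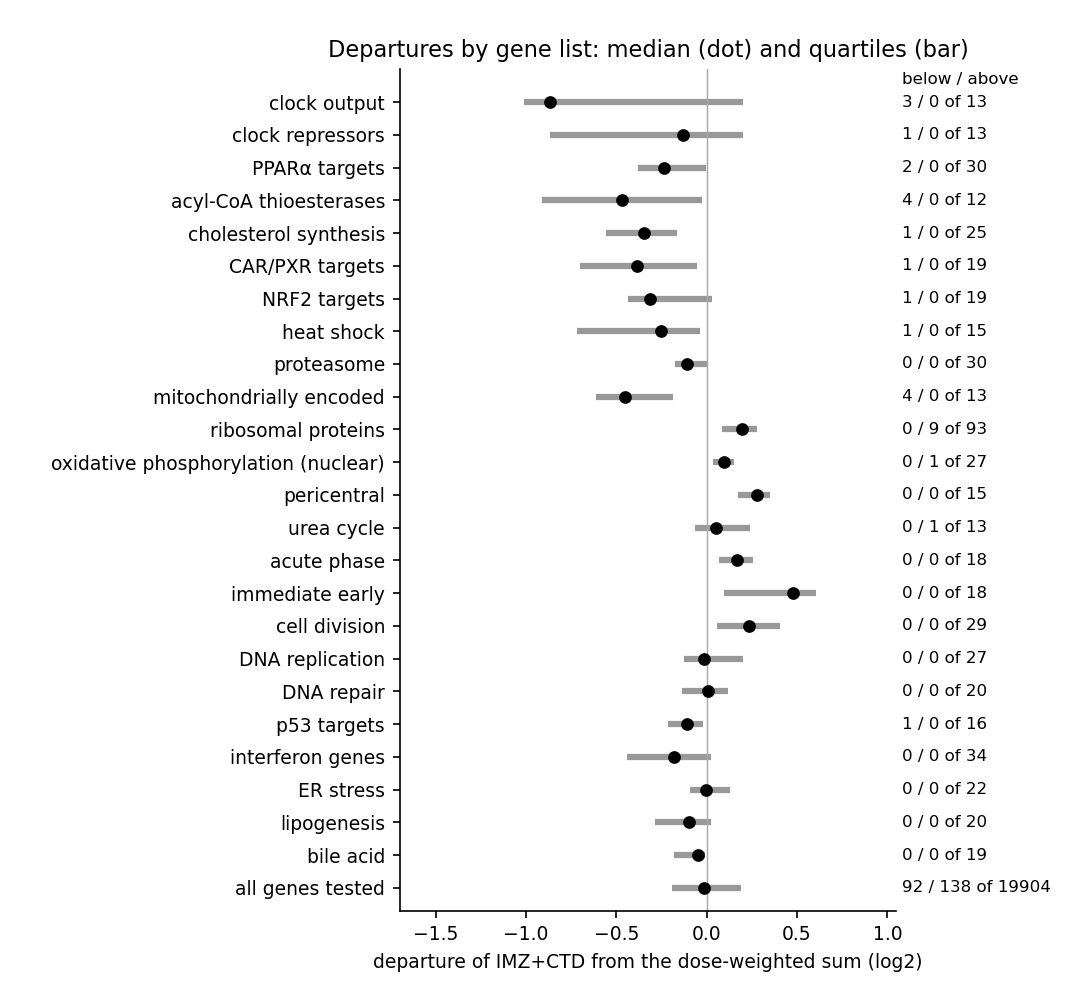
Median departure (dot) and quartiles (bar) on the log2 scale for 24 gene lists and all genes tested, with the number of genes called below and above the sum and the number tested at the right. The clock-controlled genes (labelled clock output), acyl-CoA thioesterases and mitochondrially encoded genes lie lowest, and no gene of the cell division list was called.

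Markers of hepatocytes and of other cell types gave no gene off the sum. The defining markers of hepatocytes were high in every liver, and the 10 listed had no call, with 3 above and none below at an unadjusted p under 0.05. All 10 departures were positive, with a median of 0.14. Of 7 erythroid markers, none was called, 4 were below at the unadjusted threshold and all 7 departures were negative, with a median of -1.11. Alas2, the heme synthesis enzyme of red cell precursors, had 1.56, 1.78 and 1.02 CPM in CTD, 0.492, 0.483, 0.0588 and 0.161 CPM in IMZ + CTD and 0.0454 to 0.468 CPM in Control. CTD stood above all other groups in this gene, and its departure was -1.55 (95% interval -2.97 to -0.12, adjusted p = 0.3). The summed T and NK cell markers took 0.00177 to 0.00218% of counts in IMZ + CTD, below every IMZ rat (0.00248 to 0.00351%), and overlapped CTD and Control. The Kupffer markers took 0.05342 to 0.08386% in IMZ + CTD, also below every IMZ rat (0.08389 to 0.1065%), and overlapped CTD and Control. The ranges of the B cell, stellate, endothelial, cholangiocyte and pancreas markers overlapped between IMZ + CTD and each of the other 3 groups. The few counts on neutrophil markers took 1.57e-05 to 3.95e-05% in IMZ + CTD, below IMZ (6.35e-05 to 7.99e-05%) and CTD (4.71e-05 to 0.000102%) and within reach of Control (2.08e-05 to 4.84e-05%). Several T cell, B cell and neutrophil markers were at 0 counts in some of the 19 rats, among them Pax5 in 14 and Mpo in 13. The part of blood or immune cells in the departures was not tested.

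The second mixture with CTD was set beside these values to see where IMZ + CTD differed. Against its own dose-weighted sum, THI + CTD had 57 genes off the sum (0.286%) by the same test, and the mixture of THI and IMZ had 3 (0.0151%). As the comparisons share the Control and CTD rats, their departures are not independent, and 35 of the 230 genes were off both sums. The departure had the same sign in THI + CTD for 188 of the 230, but this share was not counted over all genes. Scamp3, for example, departed from the THI + CTD sum by 0.96 and Rps16 by 1.25. Serping1 (0.59), Idh1 (0.47), Eif5b (-0.48), Hnrnpa2b1 (-0.45), MT-ATP8 (-1.27) and MT-ND4L (-0.82) were also called off the THI + CTD sum. Their departures are thus not particular to IMZ + CTD. The test of the difference itself called 8 genes (0.0402%), of which 7 were also off the IMZ + CTD sum. The eighth was Pex11a. At an unadjusted p under 0.05 the difference held in 1835 genes.

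Of the 8 genes, 6 had a lower departure in IMZ + CTD than in THI + CTD, namely Dbp, Acot2, Acot3, Abcd3, Pex11a and Paqr7. Dbp had 6.22, 4.48, 5.32 and 4.63 CPM in the THI + CTD rats and 2.30 to 2.86 CPM in the IMZ + CTD rats. The departures were 0.24 and -0.97, a difference of -1.21 ± 0.22 (adjusted p = 0.0331). Acot3 had 23.1, 16.1, 17.4 and 21.5 CPM in THI + CTD, all above the 7.01 to 12.6 CPM of IMZ + CTD, and the departures differed by -1.13 ± 0.19 (adjusted p = 0.00996). Acot2 had 56.3, 48.2, 44.1 and 41.4 CPM in THI + CTD (difference -1.05 ± 0.21, adjusted p = 0.0457), Abcd3 had 422, 445, 396 and 287 CPM (difference -0.78 ± 0.15, adjusted p = 0.0359), and Pex11a had 25.3, 19.8, 17.2 and 20.0 CPM (difference -1.01 ± 0.19, adjusted p = 0.0359). For all 5 genes the rats of the 2 mixtures did not overlap, although the genes were picked by a test on these same rats.

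Paqr7, a membrane progestin receptor, had 52.7, 38.5, 37 and 52.7 CPM in THI + CTD and 26.3, 18.9, 18.4 and 16.2 CPM in IMZ + CTD. It was above the THI + CTD sum by 0.72 (adjusted p = 0.0291) and below the IMZ + CTD sum by 0.66 (departure -0.66, adjusted p = 0.0397), and the difference was -1.38 ± 0.20 (adjusted p = 0.00304). It was the only gene of the 8 called off both sums, with opposite signs. Its IMZ + CTD departure lost the call without IMZ rat 3, CTD rat 2, or IMZ + CTD rats 2, 3 or 4 (0.0682 to 0.158). Stat5b and Cdo1 had the higher departure in IMZ + CTD, by 0.44 ± 0.09 (adjusted p = 0.0359) and 0.71 ± 0.12 (adjusted p = 0.00996). Stat5b had 69.7, 74.6, 77.1 and 68.9 CPM and Cdo1 890, 731, 693 and 793 CPM in the THI + CTD rats, all below the IMZ + CTD rats. For Usp2 the departures were -1.65 in IMZ + CTD and 0.43 in THI + CTD (difference -2.08 ± 0.44, adjusted p = 0.0754), and for Hlf -0.96 and 0.33 (difference -1.29 ± 0.29, adjusted p = 0.11). The number of genes called for the difference dropped to 5 without Control rat 8, to 4 and 3 without IMZ rats 1 and 3, and to 3, 5, 4 and 1 without IMZ + CTD rats 1, 2, 3 and 4.

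**Figure D5:**
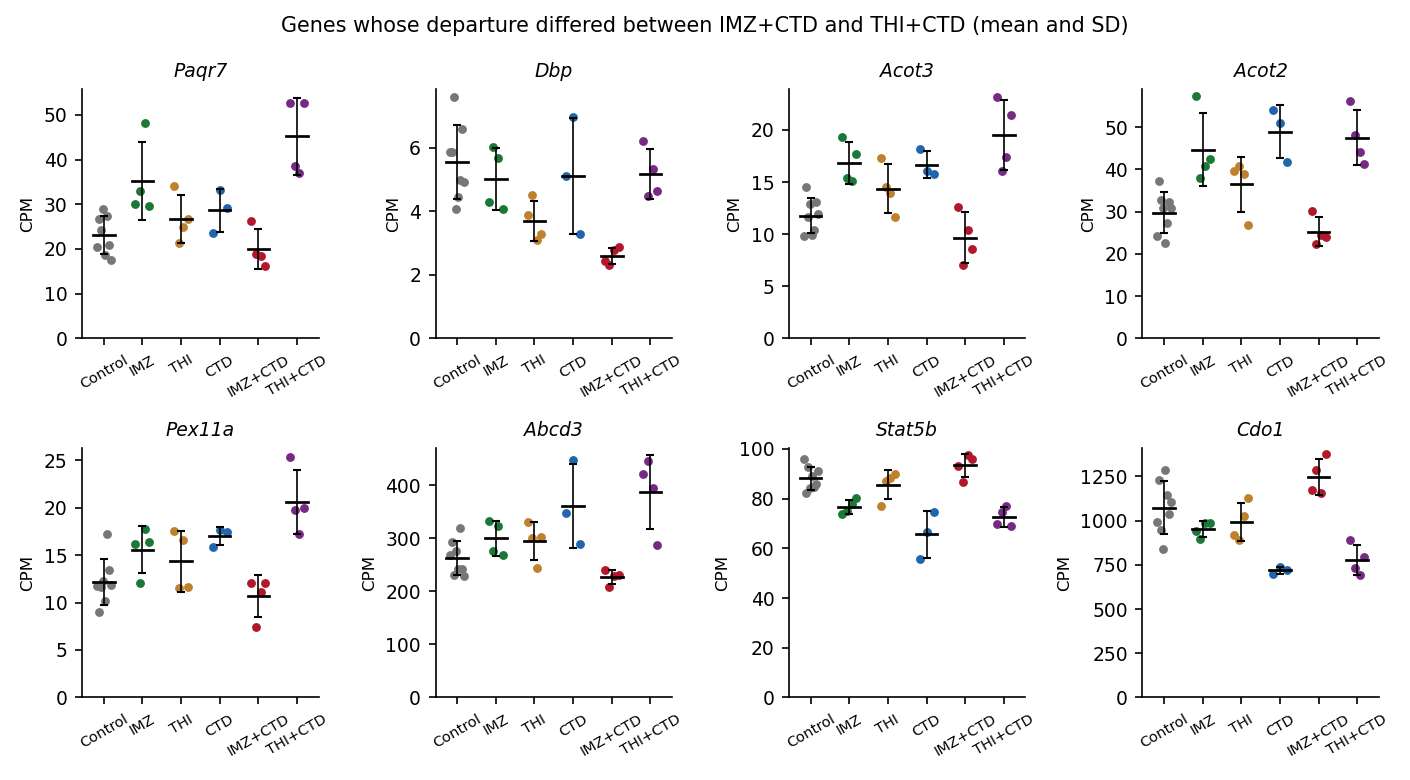
CPM in each rat of 6 groups for the 8 genes whose departure differed between IMZ + CTD and THI + CTD, with bars for the mean and SD. In the first 6 panels the THI + CTD rats lie above the IMZ + CTD rats, and in Stat5b and Cdo1 they lie below.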

How the data were processed

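Total RNA of rat livers was sequenced. The deposited table of raw counts per gene was used. Per the labels' processing notes, the authors used FastQC 0.11.5, STAR 2.5.2b (mapping to Rnor_5.0 and counting per gene ID) and DESeq2 1.15.1. The strand setting and annotation release are not given in the sources used here. A second deposited table, of normalized values, was not used. Library totals ranged from 31.8 M to 101 M counts, which sets the counting error of low genes.

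Counts were normalized by TMM and fitted with edgeR 4.0.16 (R 4.3.3) over all 7 groups, on the 19904 genes with a count sum of at least 2. The departure contrast (IMZ + CTD minus Control minus 0.5 and 0.47 times the IMZ and CTD changes) was tested by the two-sided quasi-likelihood test with Benjamini-Hochberg adjustment over all these genes. SE and 95% intervals come from this fit, and p-values measure the spread between rats as labelled. CPM are counts scaled to the TMM-adjusted library total, and levels were compared between rats, not between genes.

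Genes were named by a rule: the 12 largest and 12 smallest departures among called genes (adjusted p under 0.05) that had a symbol, a mean log2 CPM above 0 and all 4 mixture rats on 1 side, up to 4 called members of each list (or the member with the smallest p), and the members of the study's top and circadian genes, with some single genes not reported here. Others were chosen after their values were seen, and not all of these are marked where they appear. Unmarked ones include Per2, Per3, Nr1d1, Acot5, Abcd3, Pex11a, Cyp2b1, MT-ND2, ND3, Rps20, Rps28, Rps29, Rpl31, Rpl38 and Rpl41. The comparison, the gene lists and the tests were chosen with earlier results of these data known. Families matched by symbol were added to the first lists, and their counts are not independent evidence. They are the acyl-CoA thioesterases, peroxins, ribosomal proteins, complex I subunits, mitochondrially encoded genes, Hnrnp genes, Srsf genes and serpins. Alternatives were a linear sum, exact dose ratios, other normalization, filters and fits, DESeq2 1.42.0, thinned counts, a replicate block and leaving out each rat. The test was checked on artificial counts. Promoters are from RefSeq (GRCr8).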

Additional observations from a re-analysis of the deposited data

Results flagged for a closer look

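In 34 genes with values given by rat, the highest and lowest rat of each group of 4 or 8 was checked for a gap to its group by Dixon's criterion, 102 gene and group combinations in all, of which 3 were marked. Chance alone marks about 1 in 20 groups. Control rat 7 had 4.95 CPM of MT1 against 0.801 to 2.52 CPM in the other Control rats. IMZ + CTD rat 4 had 27 CPM of Lepr, where the other mixture rats had 15.2 to 16.5 CPM, and without this rat the departure of Lepr was not called (adjusted p = 0.2 by edgeR's quasi-likelihood test). Control rat 2 had 52.4 CPM of Acot4 against 22.7 to 33.6 CPM in the others.

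In 8 genes the departure of IMZ + CTD from its sum differed from that of THI + CTD by a test of the difference itself, on the log2 scale. The difference was -1.38 for Paqr7, -1.21 for Dbp, -1.13 for Acot3, -1.05 for Acot2, -1.01 for Pex11a and -0.78 for Abcd3. It was 0.44 for Stat5b and 0.71 for Cdo1. The 4 rats of each mixture lay apart in all 8 genes, and both contrasts share the Control and CTD rats. As the genes were picked by a test on these same rats, the separation is not independent evidence. The cause of these differences was not tested.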

How the results depend on the processing

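All 230 genes off the sum kept the sign of their departure under each alternative that tested them. Against 230 (138 above, 92 below), filterByExpr gave 391 (226 and 165) with 13870 genes tested, and the DESeq2 Wald test gave 614 (336 and 278), and for the difference between mixtures 127 genes against 8. The linear sum gave 200 genes, no filter 204, a fit on the 19 rats of the 4 groups 284, and the thinned counts 235. Leaving out 1 rat gave 66 to 285 genes off the sum, 41 to 166 above, 24 to 119 below and 1 to 12 for the difference. The lowest counts came without IMZ + CTD rats 4, 3 and 2 (66, 73 and 79), and those below the sum also dropped to 61 without IMZ rats 3 or 4 and to 54 without CTD rat 2. Of the 71 named genes called, 48 kept the call under each of the 10 settings other than leaving out a rat, and 16 under all 29. Besides the block, the call was lost for Serpina7, Sds, Tymp, Tmem86a, Tap2, Rpl31 and Ncam2 with the linear sum, for Sc5d with DESeq2 size factors, the exact dose ratios, no filter or thinned counts, for Hif1a with no filter, for Snx10 and Rpl31 with thinned counts, for Tmem86a and Ncam2 with the newer quasi-likelihood method, and for Tp53inp1, Tap2, MT-ND2 and Fermt3 in the fit on 19 rats. The departure changed sign for 2 of the other named genes, which were not called: Mme without IMZ rat 3 (0.04), CTD rat 2 (0.12) or IMZ + CTD rat 1 (0.10), and Eln without IMZ + CTD rat 3 (-0.061). With 1 rat left out their departures ran from -0.50 to 0.12 and from -0.061 to 0.30. Deviations of rats with the same replicate number in different groups correlated at -0.163 to 0.171 (21 pairs, median 0.039). For different numbers the correlations ran from -0.26 to 0.257 (107 pairs, median -0.0054). The ranges overlap and show no pairing, but weak correlations cannot exclude that the numbers pair the rats. With a replicate block 162 genes were off the sum (96 above, 66 below) and 9 had a called difference. The block took the call from MT1, Sds, Tmem86a, Hlf, Snx10, Hist3h2a, Abcb1a, Gclm, Sc5d, Thrb, Cox4i1, Hnrnpu, Rpl31, Npc1, Ces2g and Hif1a. Medians of gene lists, which carry no test, moved by more than the spread between rats in 22 of 53 lists under 1 or more alternatives. They ran from -0.53 to -0.25 for the thioesterases, -0.41 to -0.18 for NRF2 targets, -0.50 to -0.26 for CAR and PXR targets, -0.50 to -0.23 for cholesterol synthesis, 0.30 to 0.60 for immediate early genes, 0.10 to 0.22 for acute phase genes, 0.10 to 0.24 for serpins and -0.07 to 0.57 for cell division. Among genes with an average log2 CPM above 0 the median SE of a departure was 0.118, which limits the size that could be called. The cause of the lost calls was not tested.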
